A study of Mus musculus with 9 samples.

Results

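Leukocyte integrins were followed as 10 genes of the deposited count table, chosen by name with earlier results of these data known. They were the alpha chain genes Itgal, Itgam, Itgax, Itgad, Itga4, Itgae and Itga9 and the beta chain genes Itgb2, Itgb7 and Itgb3. All 10 of them were found among the 50508 gene rows, and all 10 passed the filter on low counts that left 14708 genes for testing. Their reads were compared between TDC, the population the study is about, conventional dendritic cells (DC) and conventional T cells, sorted from spleens of untreated mice that were 8 weeks old. Every population came from mice homozygous for Zbtb46-GFP, a reporter of the conventional DC lineage, and no population without the reporter was analysed here. There were 3 libraries per population, each from a pool of 5 spleens (replicate 1) or 6 spleens (replicates 2 and 3). The sources used here do not give the sort gates, and whether an integrin such as CD11c served to select TDC or DC is not known.

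Integrins are adhesion receptors made of an alpha and a beta chain that bind ligands on other cells or in the matrix once signals from inside the cell have switched them to an active shape. On leukocytes the beta2 chain (Itgb2, CD18) pairs with alphaL (Itgal, CD11a), alphaM (Itgam, CD11b), alphaX (Itgax, CD11c) or alphaD (Itgad, CD11d). The beta7 chain (Itgb7) pairs with alpha4 (Itga4) or alphaE (Itgae, CD103), alpha4 and alpha9 (Itga9) also pair with beta1, and beta3 (Itgb3) pairs with alphaV or with the platelet chain alphaIIb. CD11c is widely used to mark mouse DC, CD11a and its ICAM ligands serve T cell contacts, CD103 binds E-cadherin, and alphaD is known from macrophages of the splenic red pulp.

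The 4 alpha chain genes of beta2 lie on the same chromosome. In the GENCODE M21 annotation of GRCm38, Itgam (chromosome 7, 128062640 to 128118491), Itgax (128129547 to 128150657) and Itgad (128154376 to 128223816) follow each other on the plus strand. The gap is 11.1 kb between Itgam and Itgax and 3.7 kb between Itgax and Itgad, and Itgal lies 727.5 kb before Itgam at 127296260 to 127335138. The 3.7 kb gap depends on the GENCODE model of Itgad. In the RefSeq models of GRCm38.p6 Itgax ends at 128150657 and Itgad starts only at 128173933, a wider gap. Itgb2 is on chromosome 10 (77530252 to 77565708), Itga4 on chromosome 2 (79255426 to 79333123), Itga9 on chromosome 9 (118606690 to 118901003) and Itgb7 on the minus strand of chromosome 15 (102215995 to 102231944). Itgae (73090583 to 73147446) and Itgb3 (104608000 to 104670476) are both on chromosome 11. Within the last 500 bases of their annotated coding transcripts, no pair of the 4 beta2 alpha chain genes shared an exact run longer than 16 bases. Over whole transcripts the longest shared run was 188 bases, between Itgax and Itgad.

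Start regions are shown for Itgam and Itgax, neighbours whose mean levels had the same order over the 3 populations, and for Itgb7, whose order differed. RefSeq windows (GRCm38.p6) of 300 bases, 250 before and 50 after the gene start, were matched for 5 of the 10 genes (Itgax, Itgam, Itga4, Itgb7 and Itga9). The windows below are chr7:128062390-128062689 (plus strand) for Itgam, chr7:128129300-128129599 (plus strand) for Itgax and chr15:102231886-102232185 (minus strand) for Itgb7, each written 5′ to 3′ along the gene. Capitals mark matches on either strand to GAGGAA (a core of PU.1 sites), TGTGGT (a core of RUNX sites) and GGGCGG (the Sp1 GC box), none of which overlapped.
Itgam: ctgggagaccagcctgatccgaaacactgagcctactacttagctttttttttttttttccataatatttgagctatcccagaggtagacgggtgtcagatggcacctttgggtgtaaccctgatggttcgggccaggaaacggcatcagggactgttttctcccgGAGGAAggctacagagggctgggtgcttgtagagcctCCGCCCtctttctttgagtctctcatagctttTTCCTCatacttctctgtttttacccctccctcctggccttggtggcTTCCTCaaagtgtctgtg
Itgax: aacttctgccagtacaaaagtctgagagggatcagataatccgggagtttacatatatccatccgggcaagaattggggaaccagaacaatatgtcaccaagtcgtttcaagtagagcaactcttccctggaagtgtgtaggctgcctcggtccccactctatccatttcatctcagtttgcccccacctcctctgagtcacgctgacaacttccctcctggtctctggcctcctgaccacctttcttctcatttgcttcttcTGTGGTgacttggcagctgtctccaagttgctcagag
Itgb7: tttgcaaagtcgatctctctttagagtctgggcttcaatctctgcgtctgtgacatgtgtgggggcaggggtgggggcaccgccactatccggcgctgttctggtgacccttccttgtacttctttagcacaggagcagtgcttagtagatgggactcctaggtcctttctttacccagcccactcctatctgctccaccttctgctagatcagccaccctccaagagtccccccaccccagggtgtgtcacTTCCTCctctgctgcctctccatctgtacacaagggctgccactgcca
The Itgam window held 3 matches to GAGGAA and 1 to GGGCGG, the Itgax window 1 match to TGTGGT and the Itgb7 window 1 match to GAGGAA. Among 32851 windows of the same length, 28.3% held GAGGAA, 16.8% TGTGGT and 35.7% GGGCGG. These are letter matches only.

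Libraries held 14594850 to 22677130 reads for TDC, 14973484 to 25676640 for DC and 10986544 to 18071425 for T cells, with 1 read equal to 0.0383 to 0.0897 CPM (reads scaled to the library's size after TMM adjustment) in a library. The sort labels were checked against marker lists. Summed over 12 T cell genes, TDC had 102 to 336 CPM, DC 59.4 to 107 CPM and T cells 8704 to 11534 CPM, with Cd3e and Cd3g at 0 in DC. The sum does not stand for every gene of this list. Of the 12 genes, 9 were called higher in TDC than in DC and 0 lower, beside 9.55% and 4.60% of all tested genes. All 12 were called lower in TDC than in T cells, beside 11.2% of all tested genes. Summed over 14 conventional DC genes, TDC had 14321 to 18997 CPM, DC 46099.9 to 74494 CPM and T cells 122 to 190.1 CPM, with Clec9a, Cd209a, Clec10a, Batf3 and Kmo at 0 in T cells. Of these 14 genes, 1 was called higher and 7 lower in TDC than in DC. Against T cells 12 were called higher and 0 lower, beside 21.8% and 11.2% of all tested genes. Summed over 14 red pulp macrophage genes, TDC had 45786 to 76795 CPM, DC 398 to 502 CPM and T cells 2.95 to 7.75 CPM, with Adgre1, Cd5l, C1qc, Mertk, Treml4, Siglec1 and Hpgd at 0 in T cells. All 14 of these macrophage genes were called higher in TDC against either control, and what part they have in the integrin levels of TDC was not tested. In sorted bulk samples, fewer cells of a type and less RNA per cell cannot be told apart. Below, values are CPM, means carry the SD of 3 libraries, and "called" means an adjusted p under 0.05 in edgeR's quasi-likelihood test over all tested genes.

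The beta2 family changed its composition between the populations. Itgad was the dominant alpha chain gene in TDC, Itgax in DC and Itgal in T cells, and the shared beta chain gene Itgb2 was present in all 3 and highest in TDC. Itgad, whose alphaD chain binds VCAM-1 and ICAM-type ligands, had 750.3, 2081 and 1211 CPM in the TDC libraries, 5.86, 6.13 and 1.85 CPM in DC and 0.985, 1.58 and 1.34 CPM in T cells. No TDC library came near a control library. The log2 fold change was 10.00 for TDC against T cells (SE 0.71, adjusted p = 7.43e-06) and 8.19 for TDC against DC (SE 0.66, adjusted p = 0.000117).

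Itgax, the CD11c gene, had 62.2, 117 and 131 CPM in TDC, 574, 201 and 539.6 CPM in DC and 0.774, 0 and 1.29 CPM in T cells. TDC libraries lay between both controls without touching either. Itgax was called against T cells (7.23 on the log2 scale, SE 0.97, adjusted p = 0.000330), and against DC it missed the threshold (log2 fold change -2.08, SE 0.75, adjusted p = 0.0935). That lower value in TDC than in DC was called when only both groups were fitted (adjusted p = 0.0303), without T cell replicate 2 (0.0207), with limma-voom (0.0163) and with the DESeq2 Wald test (0.0353). Itgam, the CD11b gene of myeloid cells, was at 13.9, 65.9 and 32.3 CPM in TDC, 122, 44.2 and 124 CPM in DC and 2.18, 0.889 and 0 CPM in T cells. Here TDC replicate 2 exceeded DC replicate 2, while every TDC library was above the T cells. Itgam rose against T cells (5.23 on the log2 scale, SE 1.08, adjusted p = 0.00432) and was not called against DC (log2 fold change -1.37, SE 0.89, adjusted p = 0.358).

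Itgal, the alpha chain gene of LFA-1, had 5.92, 32.5 and 35.5 CPM in TDC, 102, 35.3 and 101 CPM in DC and 151, 138 and 163 CPM in T cells. All TDC libraries were below all T cell libraries, and TDC replicate 3 slightly exceeded DC replicate 2. Itgal fell by 2.61 on the log2 scale against T cells (SE 0.63, adjusted p = 0.00943), and its difference from DC was not called (log2 fold change -1.69, SE 0.61, adjusted p = 0.0951), except with the DESeq2 Wald test (adjusted p = 0.0376). Itgb2, without whose beta2 chain none of the 4 alpha chains reaches the surface, had 1191, 1567 and 1411 CPM in TDC, 741, 293 and 733 CPM in DC and 517, 417 and 480 CPM in T cells (479.6 in replicate 3). Every TDC library was above every control library. Itgb2 rose against T cells (1.56 on the log2 scale, SE 0.37, adjusted p = 0.00898), a call that ended when libraries were scaled by size alone (adjusted p = 0.0885). Its rise against DC was at the threshold (log2 fold change 1.24, SE 0.37, adjusted p = 0.0485) and ended without any single one of the 9 libraries (adjusted p = 0.0609 to 0.175), with 3 other scalings (0.0508 to 0.175) and with DC and TDC fitted alone (0.104).

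**Figure D1:**
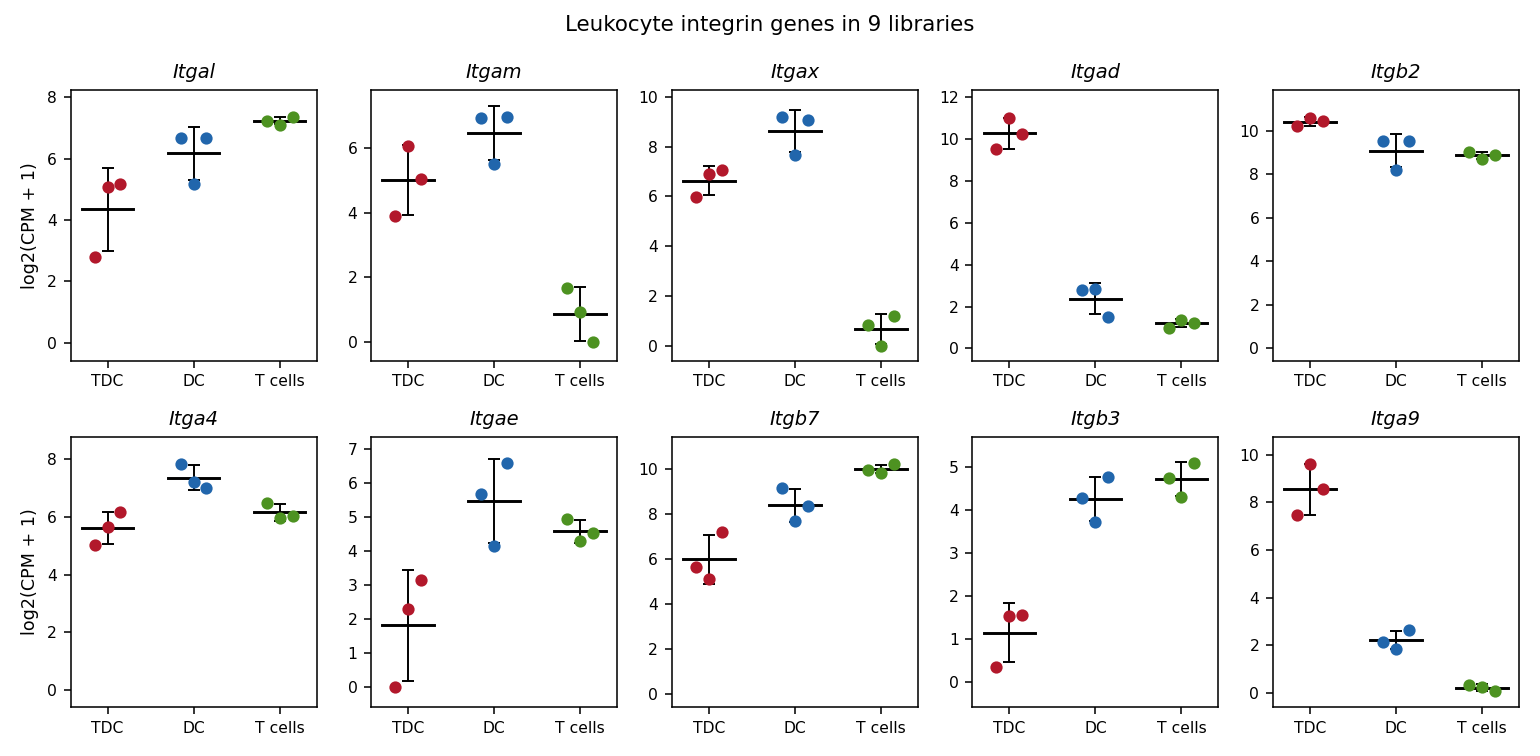
Each panel plots 1 integrin gene as log2(CPM + 1) in the 3 libraries (points) of TDC, DC and T cells, with the mean (line) and SD (bar) on that scale. Itgad and Itga9 stand far above both controls in TDC, Itgb3, Itgb7 and Itgae are lowest there, and Itgax and Itgam lie between DC and T cells.

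Because a share within a library does not depend on scaling between libraries, the reads of the 4 alpha chain genes were also expressed as shares of their sum. This sum held 9274 to 41187 reads in TDC, 4107 to 21006 in DC and 2202 to 3219 in T cells. Itgad took 90.1%, 90.6% and 85.9% of it in TDC, 0.728%, 2.14% and 0.241% in DC and 0.636%, 1.13% and 0.808% in T cells. Exact binomial 95% intervals, which cover counting error only, were 85.4% to 86.4% for TDC replicate 3 and 1.72% to 2.63% for DC replicate 2. Itgax took 7.28% ± 2.09 in TDC, 70.6% ± 0.689 in DC and 0.425% ± 0.394 in T cells (SD, n = 3), and Itgam 2.28% ± 0.598, 15.6% ± 0.534 and 0.680% ± 0.705 in the same order. Itgal took 1.55% ± 0.913 in TDC, 12.7% ± 0.430 in DC and 98.0% ± 0.510 in T cells. The DC proportions were nearly the same in all 3 DC libraries, with Itgax between 70.1% and 71.4%, although Itgax itself ranged from 201 to 574 CPM. For each of the 4 shares TDC differed from DC and from T cells with an exact two-sided permutation p of 0.1, the smallest that 3 against 3 libraries allow. For Itgad the DC and T cell shares overlapped (exact permutation p = 0.9).

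**Figure D2:**
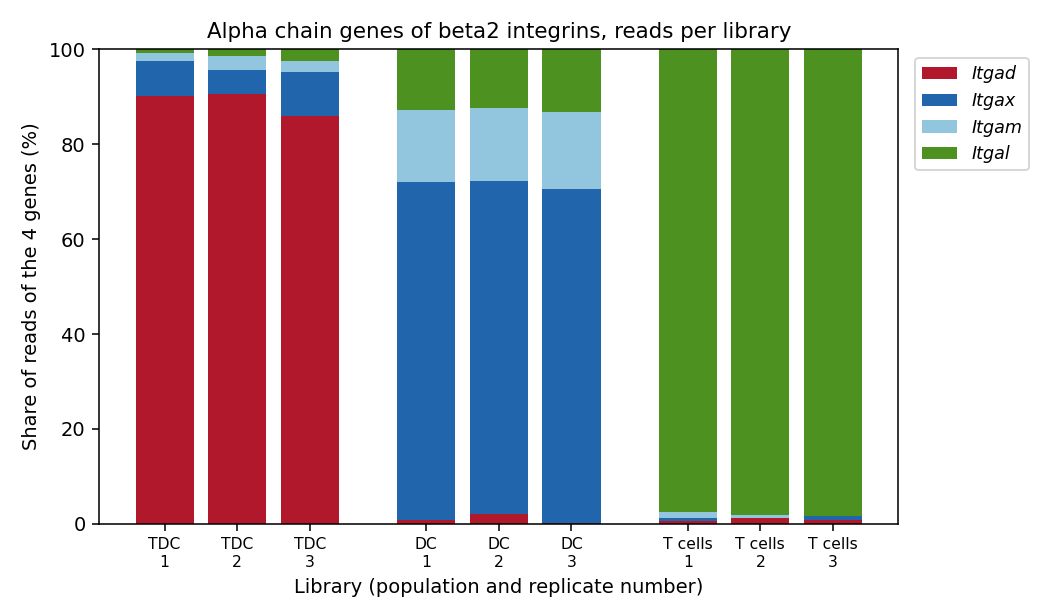
Stacked bars give, for each library, the percentage of reads of Itgad, Itgax, Itgam and Itgal in their sum, with TDC, DC and T cell libraries from left to right. Itgad fills 85.9% to 90.6% of the TDC bars, Itgax 70.1% to 71.4% of the DC bars and Itgal 97.5% to 98.4% of the T cell bars.

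Set against the beta chain, the summed CPM of the 4 alpha chain genes was 0.699, 1.47 and 0.998 times that of Itgb2 in TDC, 1.09, 0.975 and 1.05 times in DC and 0.299, 0.336 and 0.346 times in T cells. Counts of 3' reads follow transcript number with little effect of length, but capture can differ between genes. These ratios and the shares above therefore compare libraries and not chains. T cells were below both other populations in every library.

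The alpha4, alphaE and beta7 genes were lower in TDC than in 1 or both controls. Itgb7, the beta chain of gut-homing and epithelium-binding integrins, had 48.6, 33.9 and 147 CPM in TDC, 566, 204 and 324 CPM in DC and 989, 903 and 1182 CPM in T cells. The 3 populations did not overlap. Itgb7 fell by 3.75 on the log2 scale against T cells (SE 0.60, adjusted p = 0.00103) and by 2.26 against DC (SE 0.57, adjusted p = 0.0239). The call against DC ended without TDC replicate 1 or 2 or DC replicate 1 (adjusted p = 0.0802, 0.0848 and 0.0859) and with DC and TDC fitted alone (0.0551).

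Itga4, the alpha chain gene of VLA-4, had 31.9, 49.0 and 71.2 CPM in TDC, 229.8, 148 and 129 CPM in DC and 88.6, 61.0 and 65.3 CPM in T cells. TDC and T cells overlapped, and DC was above both. Itga4 fell against DC (log2 fold change -1.74, SE 0.38, adjusted p = 0.0123) and was not called against T cells (-0.50 on the log2 scale, SE 0.37, adjusted p = 0.333). The call against DC ended without TDC replicate 2 (adjusted p = 0.0547) or DC replicate 1 (0.0508). Itgae, the CD103 gene of some DC and CD8 T cells, had 0, 3.90 and 7.90 CPM in TDC, 50.4, 16.7 and 94.4 CPM in DC and 29.7, 18.5 and 21.9 CPM in T cells. Every TDC library was below every control library, and TDC replicate 1 had no read. The fall against DC was at the threshold (log2 fold change -3.76, SE 1.11, adjusted p = 0.0475), and against T cells Itgae was not called (log2 fold change -2.56, SE 1.06, adjusted p = 0.0891). The call against DC ended without TDC replicate 2 or 3, without DC replicate 1 or 3, or without any single T cell library (adjusted p = 0.0612 to 0.147), when no filter was used (0.162) and with DC and TDC fitted alone (0.0948). Against T cells Itgae passed with the DESeq2 Wald test (0.0339) and limma-voom (0.0460).

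As a share of the reads of Itgae and Itga4 together, Itgae was at 0%, 7.38% and 9.99% in TDC, 18.0%, 10.1% and 42.2% in DC and 25.1%, 23.2% and 25.1% in T cells. In TDC replicate 1 the 0 of 355 reads allow a share of up to 0.845% (3 reads). T cell libraries agreed closely, whereas DC spread widely (SD 16.7 percentage points), and no TDC library exceeded the lowest DC library. The exact two-sided permutation p was 0.1 for TDC against T cells and for TDC against DC, again the smallest possible, and 1.0 for DC against T cells.

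Itgb3, the beta chain of the vitronectin receptor, was counted at 0.269, 1.90 and 1.94 CPM in TDC, 18.6, 12.3 and 26.3 CPM in DC and 26.0, 19.0 and 33.5 CPM in T cells. TDC libraries were all below both controls, which overlapped each other. Itgb3 fell by 4.23 against T cells (SE 0.70, adjusted p = 0.00120) and by 3.77 against DC (SE 0.69, adjusted p = 0.00515) on the log2 scale. Itga2b, the platelet partner of beta3, was at 3.22 CPM at most in any library, and the platelet genes Gp1bb, Gp6 and Treml1 had no read in TDC. The sum of 12 megakaryocyte and platelet genes was nevertheless higher in TDC (182 to 411 CPM) than in DC (0 to 8.50 CPM) and T cells (0 to 2.74 CPM), mostly from Clec1b at 170.0 to 393 CPM in TDC.

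Itga9, whose alpha9beta1 integrin binds tenascin, osteopontin and VCAM-1, had 176, 777 and 373 CPM in TDC, 3.44, 2.65 and 5.25 CPM in DC and 0.281, 0.198 and 0.0515 CPM in T cells. The 3 populations were fully separate and TDC spread widely, with replicate 2 high and replicate 1 low as for Itgad. Itga9 rose by 11.29 on the log2 scale against T cells (SE 0.84, adjusted p = 9.60e-06) and by 6.87 against DC (SE 0.67, adjusted p = 0.000276). The alpha9 partner gene Itgb1 had 331, 811 and 587 CPM in TDC, 432, 130.0 and 367 CPM in DC and 84.0, 115 and 102 CPM in T cells.

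Ranked within each population by mean CPM, TDC had Itgb2 (1389.9 ± 189) and Itgad (1347 ± 676) at the top with overlapping libraries, then Itga9 (442 ± 306), Itgax (103 ± 36.3), Itgb7 (76.4 ± 61.3), Itga4 (50.7 ± 19.7), Itgam (37.4 ± 26.3), Itgal (24.6 ± 16.3), Itgae (3.93 ± 3.95) and Itgb3 (1.37 ± 0.951). Capture can differ between genes, so these are orders of reads. Only the step between Itga9 and Itgax had no overlap between libraries. Compared within each TDC library, Itgad was also above Itga9 and Itgal above Itgae in every one. DC ran from Itgb2 (589 ± 256) over Itgax (438 ± 206) and Itgb7 (365 ± 185) to Itgad (4.61 ± 2.40) and Itga9 (3.78 ± 1.33). Neighbours in the DC order were separate over all libraries only between Itga4 and Itgam and between Itgb3 and Itgad. Within every single DC library, Itgb2 was also above Itgax, Itgb7 above Itga4, Itgam above Itgal, Itgal above Itgae and Itgae above Itgb3. T cells had Itgb7 (1025 ± 143), Itgb2 (471 ± 50.4), Itgal (151 ± 12.7) and Itga4 (71.6 ± 14.9) in separate steps, with Itgb3 (26.2 ± 7.26) and Itgae (23.3 ± 5.75) overlapping, and Itgad, Itgam, Itgax and Itga9 at or under 2.18 CPM in every library.

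Libraries of a population did not share 1 level. TDC replicate 1 was the lowest TDC library for 9 of the 10 genes, against 42.3% of the tested genes with a single lowest TDC library. DC replicate 2 was the lowest DC library for 8 of the 10, against 35.4% of tested genes. Among TDC, replicate 1 had the highest sum of red pulp macrophage genes (76795 CPM) and of erythroid genes (2222 CPM). The sums of 6 monocyte genes (3566, 11585 and 7498 CPM) and of 8 endothelial and stromal genes (144, 399 and 215 CPM) were lowest in TDC replicate 1 and highest in replicate 2, the order of Itgad, Itga9 and Itgam. Only 3 of the 8 endothelial and stromal genes passed the filter on low counts. Cdh5, Col1a1, Col3a1, Cxcl12 and Madcam1 did not, so this sum rests on few genes of its list. Monocyte genes summed to 110.1 to 508 CPM in DC and 205 to 587 CPM in T cells, and endothelial and stromal genes to 30.2 to 74.0 and 55.1 to 106 CPM. The monocyte sum does not stand for every gene of its list. Of 5 tested, 1 was called higher in TDC than in DC, where 9.55% of all tested genes were. Against T cells 3 were higher and 1 was lower, beside 21.8% and 11.2% of all tested genes. DC replicate 2 had the highest sum of conventional DC genes among DC (74494 CPM). Whether cells of these types were present, and their part or that of depth in the integrin levels, was not tested.

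Against T cells 5 of the 10 genes were higher (Itga9, Itgad, Itgax, Itgam and Itgb2), 3 were lower (Itgb3, Itgb7 and Itgal), and Itga4 and Itgae were not called. Of all tested genes 33.0% were called, 21.8% higher and 11.2% lower, beside 8 of 10 integrins. All TDC libraries were above all T cell libraries for 5 integrins and below them for 4, where 29.6% of all tested genes were above and 22.4% below. The median log2 fold change of the 10 was 0.53, beside 0.14 over all tested genes. All but the Itgb2 call were made under every alternative scaling, filter and test and without each library in turn. Scaled by library size alone, 42.9% of the calls over all genes were higher, against 66.0% with TMM, with a median log2 fold change of -0.47.

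Against DC 3 of the 10 were higher (Itgad, Itga9 and Itgb2) and 4 lower (Itgb3, Itgae, Itgb7 and Itga4), while Itgax, Itgal and Itgam were not called. The background was 14.1% called, 9.55% higher and 4.60% lower. All TDC libraries were above all DC libraries for 3 integrins and below them for 5, where 20.1% of all tested genes were above and 14.8% below. The median log2 fold change was -1.71 for the 10 genes and 0.01 for all tested genes. Itgad, Itga9 and Itgb3 were called under every alternative and without each library, whereas the count of called genes fell to 3 without TDC replicate 2 or without DC replicate 1. With library size alone, 53.1% of the calls over all genes were higher, against 67.5%.

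DC were compared with T cells as the controls of the study. Itgax (log2 fold change 9.32, SE 1.05, adjusted p = 0.000127), Itgam (6.60, SE 1.14, adjusted p = 0.00199), Itga9 (4.42, SE 0.72, adjusted p = 0.00136), Itgad (1.81, SE 0.53, adjusted p = 0.0295) and Itga4 (1.24, SE 0.37, adjusted p = 0.0343) were higher in DC. That is 5 of 10, where 23.8% of all tested genes were called and 15.4% were higher. All DC libraries were above all T cell libraries for 5 integrins (21.8% of tested genes) and below them for 2 (17.9%). None was called lower in the edgeR fit used throughout (8.41% of all tested genes were), with 1 at an unadjusted p under 0.05. That was Itgb7 (log2 fold change -1.49, adjusted p = 0.0773). It was called lower with limma-voom (0.0178) and the DESeq2 Wald test (0.0306). In edgeR it was called with no filter (0.0398), with both groups fitted alone (0.0264) and without TDC replicate 3 (0.0290). Itgal, Itgb2, Itgae and Itgb3 were not called either (adjusted p = 0.307, 0.588, 0.441 and 0.650). The Itgad call ended without DC replicate 1 or 2 or any single T cell library (adjusted p = 0.0628 to 0.101), with library size alone (0.0513), with limma-voom (0.277) and with both groups fitted alone (0.172). The Itga4 call ended without TDC replicate 2, DC replicate 1 or any single T cell library, and with library size alone or upper-quartile factors (0.0507 to 0.136). With limma-voom Itga9 was at an adjusted p of 0.0515. The T cell and DC comparisons of TDC share the TDC libraries, so their values are not independent.

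A contrast of TDC with the mean of both controls on the log2 scale called 9 of the 10 genes, 4 higher and 5 lower, beside 24.0% of all tested genes (18.4% higher and 5.53% lower). TDC libraries were above all 6 control libraries for 3 integrins and below all 6 for 3, where 14.2% of all tested genes were above and 5.58% below. Itgad (9.09, SE 0.50, adjusted p = 1.66e-06) and Itga9 (9.08, SE 0.56, adjusted p = 2.92e-06) were the members furthest above, and Itgb3 (-4.00, SE 0.66, adjusted p = 0.00138) and Itgae (-3.16, SE 1.02, adjusted p = 0.0467) furthest below. Itgax was called above this mean (2.57, SE 0.62, adjusted p = 0.0123) although every TDC library was below every DC library. Without TDC replicate 3 this call ended (0.0563), as did that of Itgae without TDC replicate 2 or 3, DC replicate 1 or 3 or any single T cell library (0.0569 to 0.152). The Itgae call also ended with no filter (0.152). Itga4 (adjusted p = 0.0340) was not called without TDC replicate 1 or 2, DC replicate 1 or any single T cell library (0.0502 to 0.123). The Itgal call (0.0197) ended without TDC replicate 2 (0.0554), and that of Itgb2 (0.00669) with library size alone (0.0703). Only Itgam was not called (adjusted p = 0.0913). The number called lower was 2 without TDC replicate 2 and 3 without DC replicate 1 or any single T cell library.

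**Figure D3:**
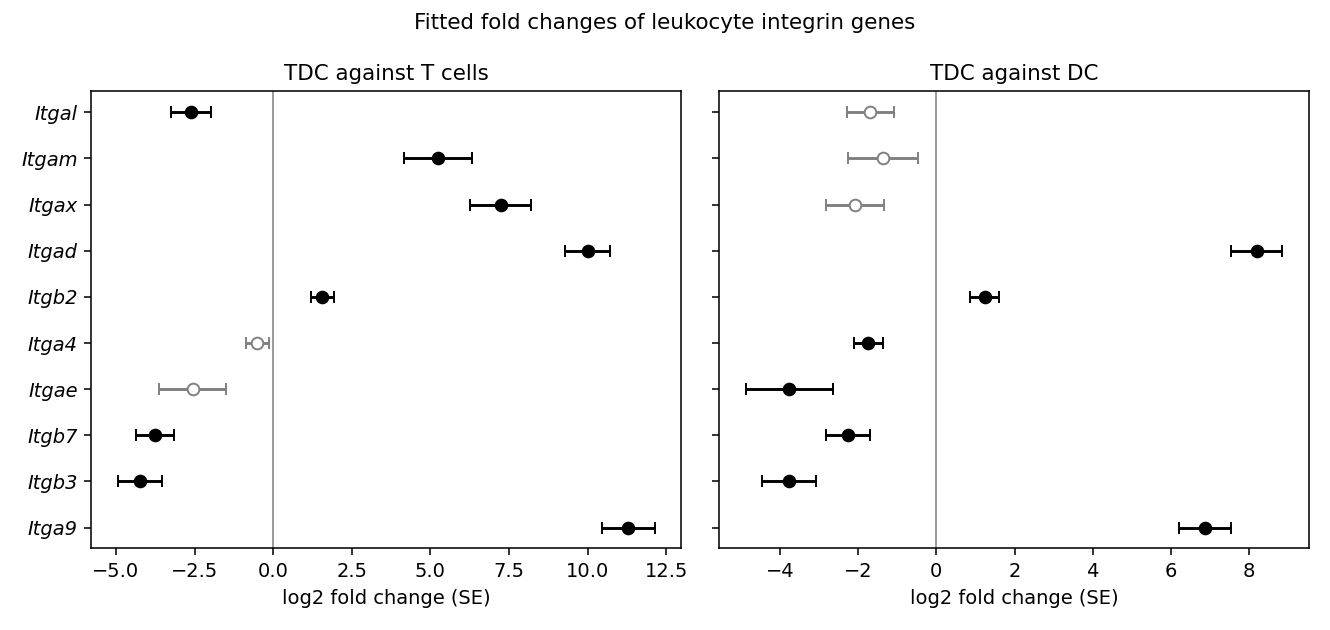
Points give the fitted log2 fold change of each integrin gene for TDC against T cells (left) and TDC against DC (right), bars its SE, filled black where the adjusted p was under 0.05 and open grey otherwise. Itgad and Itga9 lie furthest to the right in both, and Itgb3 and Itgb7 lie left of 0 in both.

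Among the other integrin chains, beta5 followed the same direction as alphaD and alpha9. Itgb5, a partner of alphaV in vitronectin binding, had 573, 1228 and 670.5 CPM in TDC, 10.4, 4.46 and 4.77 CPM in DC and 0.141, 0.395 and 0 CPM in T cells. It rose by 12.08 against T cells (SE 0.93, adjusted p = 1.13e-05) and by 6.97 against DC (SE 0.73, adjusted p = 0.000360). Both tested chains of the 5 other beta genes (Itgb5 and Itgb1) were higher than in T cells, and 1 of them (Itgb5) than in DC. Itgb1, the common beta chain of matrix receptors, was called only against T cells (2.52 on the log2 scale, SE 0.48, adjusted p = 0.00289, against DC 0.90, adjusted p = 0.239). Of 8 tested other alpha genes, 2 rose and 1 fell against T cells, shares near the 21.8% and 11.2% of all tested genes, and 1 rose and 0 fell against DC (9.55% and 4.60%). Itgav averaged 74.0 ± 51.5 CPM in TDC, 33.4 ± 8.71 in DC and 13.2 ± 7.09 in T cells (against T cells log2 fold change 2.49, adjusted p = 0.00786). Itga6, a laminin receptor chain, averaged 13.9 ± 8.18 CPM in TDC, 0.635 ± 0.456 in DC and 49.2 ± 12.5 in T cells and was called in both comparisons (adjusted p = 0.00278 against DC and 0.0443 against T cells). The Itga6 call against T cells ended without any single TDC or T cell library (0.0636 to 0.119). Itga8 averaged 0.671 ± 0.975 CPM in TDC, against 10.2 ± 2.97 CPM in DC, with no read in T cells. It was at least 12.0-fold higher in TDC than in T cells, with 3 reads over the T cell group as the floor (adjusted p = 0.0327). That call ended without TDC replicate 3, DC replicate 1 or any single T cell library and with limma-voom (0.0530 to 0.117). Its fall against DC was not called (adjusted p = 0.0961), except with limma-voom (0.00358), the DESeq2 Wald test (0.0131), no filter (0.0353) and without TDC replicate 3 (0.0388).

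Ligands and counter-receptors of integrins had 9 of 17 tested members that rose and 2 that fell against T cells (beside 21.8% and 11.2% of all tested genes that rose and fell), and 5 that rose and 1 that fell against DC (beside 9.55% and 4.60%). The list's median log2 fold change was 3.01 against T cells and 2.52 against DC, beside 0.14 and 0.01 over all tested genes. Vcam1, a ligand of alpha4, alphaD and alpha9 integrins that red pulp macrophages also carry, had 10545, 15251 and 9952 CPM in TDC, 27.4, 10.8 and 24.9 CPM in DC and 0.422, 0 and 0 CPM in T cells. All TDC libraries were far above every control library. Its log2 fold changes were 16.53 against T cells (SE 1.20, adjusted p = 8.15e-06) and 9.14 against DC (SE 0.90, adjusted p = 0.000279). F11r, the junction molecule JAM-A that binds LFA-1, averaged 153 ± 45.2 CPM in TDC, against 17.5 ± 4.14 CPM in DC, with no read in T cells, at least 2751-fold higher in TDC than in T cells (adjusted p = 5.29e-06, against DC 0.00152). Icam1, the main ligand of LFA-1 and Mac-1, averaged 619 ± 109 CPM in TDC, 315 ± 90.7 in DC and 77.0 ± 22.8 in T cells and was called against T cells (adjusted p = 0.000150) and not against DC (0.0819), except with the DESeq2 Wald test (0.0445) and limma-voom (0.0335). Thy1, a T cell surface protein that binds beta2 and beta3 integrins, averaged 2.19 ± 1.27 CPM in TDC, 0.0431 ± 0.0377 in DC and 74.5 ± 14.3 in T cells and was called in both (adjusted p = 0.00208 against DC and 0.000215 against T cells).

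**Figure D4:**
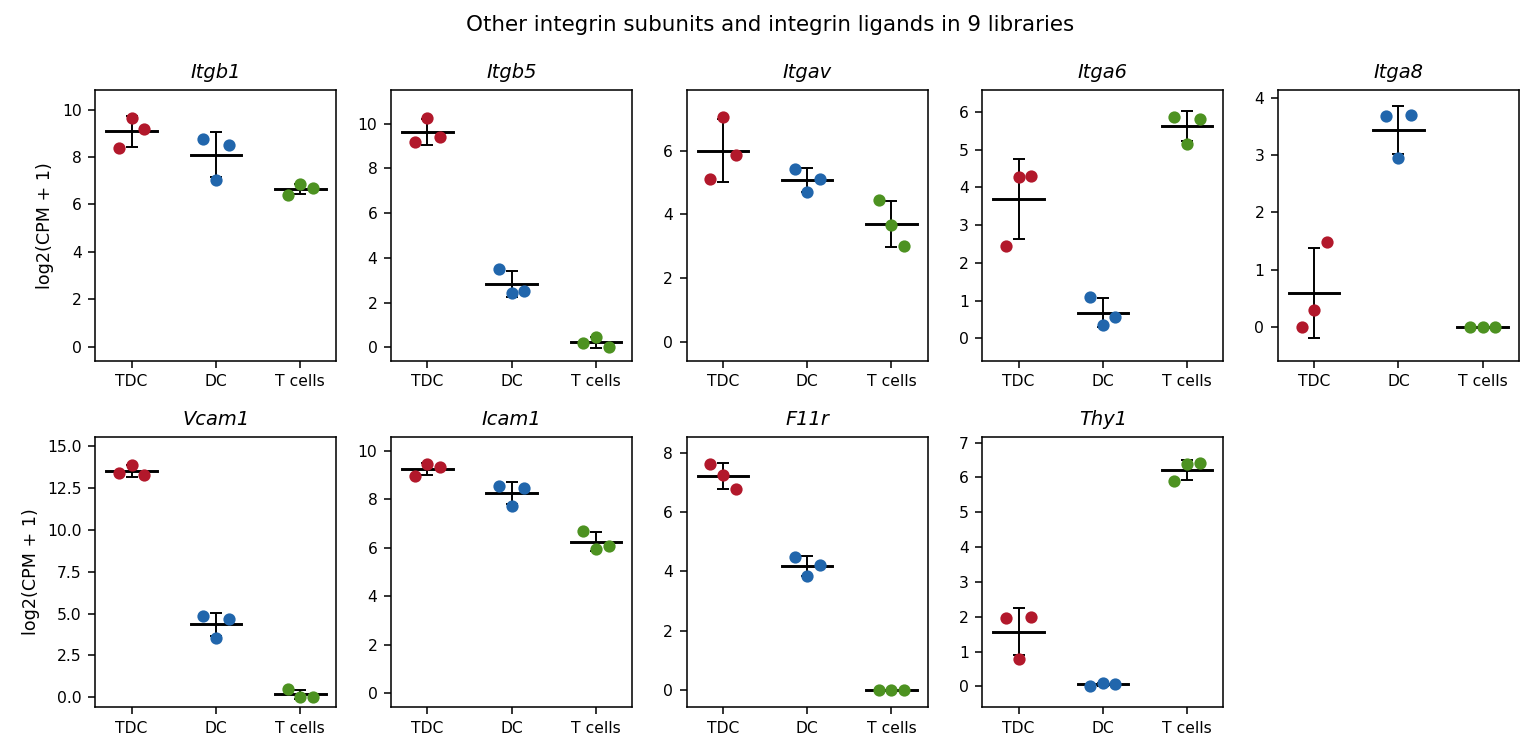
Each panel plots 1 other integrin chain gene (top row) or integrin ligand gene (bottom row) as log2(CPM + 1) in the 3 libraries (points) of TDC, DC and T cells, with the mean (line) and SD (bar) on that scale. Itgb5, Vcam1 and F11r are highest in all TDC libraries, and Itga8 is highest in DC.

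Genes of inside-out activation, which switch integrins on, were called about as often as other genes against T cells, where 3 of 18 rose (16.7%) and 2 fell (11.1%), beside 21.8% and 11.2% of all tested genes. Against DC 3 rose (16.7%) and 1 fell (5.56%), beside 9.55% and 4.60%. The list's median log2 fold change was -0.24 against T cells and 0.07 against DC. The paired adaptors Skap1 and Skap2, which link receptor signals to integrins, went opposite ways against T cells. Skap1 averaged 11.8 ± 7.46 CPM in TDC, 0.0847 ± 0.0744 in DC and 645 ± 165 in T cells (log2 fold change -5.77 against T cells, adjusted p = 9.45e-05, and 6.98 against DC, adjusted p = 0.000491). Skap2 averaged 386 ± 16.5 CPM in TDC, 589 ± 171 in DC and 18.0 ± 5.63 in T cells (4.42 against T cells, adjusted p = 1.66e-05). Rasgrp2, the exchange factor that activates Rap1, was at 130.1 ± 55.4 CPM in TDC, 8.47 ± 1.07 in DC and 173 ± 21.1 in T cells, called against DC (3.94, SE 0.38, adjusted p = 0.000217) and not against T cells (adjusted p = 0.383), except with library size alone (0.0175). Further exchange factors fell in 1 comparison each, Rapgef6 against T cells (-2.10, adjusted p = 0.00376) and Rapgef1 against DC (-1.30, adjusted p = 0.0191). Without TDC replicate 1 or 2 the Rapgef1 call ended (0.0522 and 0.0721).

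Of 10 genes that restrain integrins, 4 rose and 1 fell against T cells, beside 21.8% and 11.2% of all tested genes, and 2 rose and 1 fell against DC, beside 9.55% and 4.60%. Their median log2 fold change was -0.39 against T cells and 0.32 against DC. Cytip, which frees LFA-1 from the cytohesin that stimulates it, fell in both, with 185 ± 76.1 CPM in TDC, 1283 ± 426 in DC and 929.7 ± 228 in T cells (log2 fold change -2.79 against DC, adjusted p = 0.00224, and -2.33 against T cells, adjusted p = 0.00199). Dok2, an adaptor of haematopoietic cells, was at 87.5 ± 36.9 CPM in TDC, 0.102 ± 0.177 in DC and 213 ± 22.7 in T cells (9.33 against DC, adjusted p = 0.000196). Sipa1l1, which carries a Rap GTPase-activating domain, rose in both (1.97 against DC, adjusted p = 0.0165, and 1.64 against T cells, adjusted p = 0.0179). Those calls ended without TDC replicate 2 in both (0.0974 and 0.0965), without DC replicate 1 or 2 against DC (0.0671 and 0.0551), without T cell replicate 2 or 3 against T cells (0.0569 and 0.0657), and with library size alone in both (0.0599 and 0.124). Rap1gap2 and Dok1 rose against T cells only (4.77, adjusted p = 0.00190, and 2.10, adjusted p = 0.00782), and Dok1 ended with library size alone (0.0528).

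Outside-in signalling genes, which act once ligand is bound, rose against T cells for 17 of 25 members and fell for 2, beside 21.8% and 11.2% of all tested genes. Against DC 4 rose and 2 fell, beside 9.55% and 4.60%. The median log2 fold change was 2.45 against T cells and 0.86 against DC. Fgr, a Src family kinase of myeloid cells, averaged 543 ± 63.0 CPM in TDC, 416 ± 86.9 in DC and 3.58 ± 1.18 in T cells. It was called against T cells (adjusted p = 2.35e-06) and not against DC (0.466). Tyrobp, the adaptor DAP12, was at 1881 ± 1193 CPM in TDC, 1034 ± 729.8 in DC and 4.29 ± 0.444 in T cells (adjusted p = 2.25e-05 against T cells). Lck, the T cell Src kinase, averaged 56.4 ± 31.8 CPM in TDC, 1.08 ± 0.938 in DC and 2346 ± 323 in T cells (5.68 against DC, adjusted p = 0.00296). Dok3 rose against DC (4.39, adjusted p = 0.00141) and Pstpip1 fell (-3.11, adjusted p = 0.00603).

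Other adhesion receptors of leukocytes had 7 of 19 higher and 5 lower than in T cells, beside 21.8% and 11.2% of all tested genes, and 8 higher and 2 lower than in DC, beside 9.55% and 4.60%. Their median log2 fold change was 0.62 against T cells and 1.33 against DC. Cd44, the hyaluronan receptor, averaged 1162 ± 176 CPM in TDC, 162 ± 54.1 in DC and 50.9 ± 8.31 in T cells (log2 fold change 2.84 against DC, adjusted p = 0.000646). The tetraspanins Cd81 and Cd82, which associate with integrins, rose against DC by 3.47 and 3.35 (adjusted p = 0.000434 and 0.000436). Cadm1, Cd81 and Esam had the smallest adjusted p against T cells (1.79e-06, 4.34e-06 and 1.14e-05), with Cadm1 at 903 ± 244 CPM in TDC, 199.6 ± 45.5 in DC and 0.0234 ± 0.0406 in T cells.

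Of 24 tested regulators that are known to act on integrin genes, 9 rose (37.5%) and 3 fell (12.5%) against T cells, beside 21.8% and 11.2% of all tested genes, and 4 rose (16.7%) and 2 fell (8.33%) against DC, beside 9.55% and 4.60%. Their median log2 fold change was 0.25 against T cells and -0.13 against DC. Spi1 (PU.1), which drives Itgam and Itgb2 in myeloid cells, averaged 391 ± 88.8 CPM in TDC, against 759.7 ± 272 CPM in DC, with no read in T cells, at least 7021-fold higher in TDC than in T cells (adjusted p = 4.34e-06, against DC 0.118, called with library size alone at 0.0265 and with limma-voom at 0.0420). Runx3, which acts on Itgae in lymphocytes, was at 7.05 ± 8.58 CPM in TDC, 104 ± 13.3 in DC and 50.5 ± 13.05 in T cells. It fell against DC (-3.88, SE 0.88, adjusted p = 0.0150) and T cells (-2.84, SE 0.84, adjusted p = 0.0254). Both Runx3 calls ended without TDC replicate 2 (0.0723 and 0.1004), and the one against T cells also without T cell replicate 1 or 2 (0.0517 and 0.0683) and with no filter (0.0654). Irf8 and Cebpa rose against T cells (6.47, adjusted p = 6.88e-06, and at least 227-fold, adjusted p = 0.000220). Rxra and Gata1 rose against DC (4.28, adjusted p = 0.00670, and at least 52.0-fold, adjusted p = 0.0171). The Gata1 call ended without TDC replicate 2 (0.0505), and Gata1 had 8.73 ± 3.71 CPM in T cells, with TDC at 2.73 ± 2.55 CPM and no read in DC. Erythroid cells express Gata1, and the summed CPM of 10 erythroid genes was 709 to 2222 in TDC, 1.49 to 23.2 in DC and 0.985 to 2.42 in T cells. Their part in the Gata1 level was not tested.

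Of 8 genes next to the chromosome 7 integrins, all but Trim72 were tested. Zfp768 beside Itgal and Cox6a2 beside Itgad were called higher in TDC against T cells, where 21.8% of all tested genes were. None was called against DC, where 14.1% of all tested genes were. Around the Itgam, Itgax and Itgad stretch, Pycard averaged 67.9 CPM in TDC, 59.2 in DC and 94.2 in T cells and was not called against DC (adjusted p = 0.816) or T cells (0.423), Trim72 had no read in any library, and 9130023H24Rik was not called (0.712 against DC and 0.196 against T cells). Cox6a2 is on the opposite strand at 128205435 to 128206366. It overlaps the 3' end of Itgad by 70 bases in the RefSeq models of GRCm38.p6, where Itgad ends at 128205504, and lies wholly inside the longer GENCODE model of Itgad. The strand setting of the counting is not given, so reads of this pair cannot be told apart. Cox6a2 had 22, 97 and 28 reads in TDC, 4, 0 and 10 reads in DC and none in T cells (adjusted p = 0.00930 against T cells and 0.129 against DC). Every TDC library was above every control library, as for Itgad, which had 8360, 37322 and 16246 reads in TDC. Around Itgal, Dctpp1, Sephs2 and Zfp747 were not called between TDC and either control (adjusted p = 0.155 to 0.943), and Zfp768 averaged 14.1 CPM in TDC, against 8.60 CPM in DC, with no read in T cells (adjusted p = 0.000146 against T cells and 0.508 against DC).

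The genes most like each integrin were found by the root mean square difference of centred log2 CPM over the 9 libraries, where 0 means the same profile. Itgad was nearest to Siglec1, Scamp5 and C2 (0.67, 0.69 and 0.71), and Itga9 to Kcnk13, Itgb5 and Kcnj16 (0.71, 0.78 and 0.81). Siglec1 is itself on the red pulp macrophage list above. Itgax was nearest to Nlrp3, Rtn1 and Havcr2 (0.94, 0.95 and 0.96), and Itgam to Mctp1, Sowahc and Sh3bp4 (0.55, 0.84 and 0.87). Itgal was nearest to Spata13, Orai2 and Hk1 (0.22, 0.23 and 0.30), Itgb2 to Ostm1, Btbd2 and Ankrd40 (0.13, 0.16 and 0.20) and Itgb7 to Slain1, Padi2 and Rhof (0.26, 0.33 and 0.40). Itga4 was nearest to Csnk1g3, Setdb2 and Tmpo (0.31, 0.31 and 0.33), Itgae to L1cam, Runx3 and Mfsd6 (0.66, 0.85 and 0.86) and Itgb3 to Rabgap1l, Mfsd6 and Lpcat4 (0.59, 0.59 and 0.61). Of these 30 places 28 were filled by the same gene when libraries were scaled by size alone.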

How the data were processed

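The authors deposited whole-number read counts per gene for 9 libraries, not normalised. Per the labels' protocols the libraries were Lexogen stranded QuantSeq, which reads the 3' end of transcripts. The submitters' processing notes list featureCounts, STAR, Trimmomatic, FastQC and MultiQC, with no version given, and the build was named hg38 although samples and symbols are mouse. The sources used here give neither annotation nor strand setting, and the coordinates in the text come from GENCODE and RefSeq. Counts were analysed with edgeR 4.0.16 (R 4.3.3): filterByExpr (minimum count 10, total 15), TMM, and quasi-likelihood fitting (robust) over the 3 populations together (6 residual degrees of freedom) with Benjamini-Hochberg adjustment over 14708 genes. Fold changes against a group without reads are lower bounds from 3 reads over the group. Depth was 10986544 to 25676640 reads per library, and intervals and floors cover counting error only. The test was checked on simulated counts. Libraries are pools of animals, so p-values measure the spread between pools. No replicate pair agreed within sampling noise (chi-square per degree of freedom 62.3 to 250.4). Named genes were the 10 integrins, up to 3 called members with the smallest adjusted p per list and comparison, the 3 nearest profiles at 10 CPM or more and the 2 neighbours on each side. Some genes under this rule are not reported here. The members and lists were chosen with earlier results of these data known. Alternatives were DESeq2 1.42.0 size factors and Wald test, limma-voom 3.58.1, other scalings and filters, fits of the compared groups only, a replicate block, and omitting 1 library at a time.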

Additional observations from a re-analysis of the deposited data

How the results depend on the processing

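No called fold change of a named gene changed sign under any alternative. Against DC, fold changes that were not called did for Irf8 (-0.35 to 0.23), Rap1gap2 (-0.25 to 1.52) and Rapgef6 (-0.36 to 0.12). For the 10 integrins, 631 of 710 alternative values kept their side of the threshold, 67 lost a call and 12 gained one. With library size alone, DC against T cells called 3 of the 10, and genes called lower numbered 3321, 1886 and 1930 for TDC against T cells, DC against T cells and TDC against the mean of both. Integrins called higher in DC than in T cells were 3 with limma-voom, and 1 was called lower with limma-voom, DESeq2, no filter or both groups fitted alone. The DESeq2 Wald test called 3249 genes for TDC against DC, 1234 lower, and 1435 lower against the mean of both, and limma-voom called 1051 lower in TDC than in DC. Same-numbered columns share a name prefix whose meaning the sources used here do not give. Correlations of same-numbered deviations were -0.38 to 0.04 for TDC and DC, -0.15 to -0.01 for TDC and T cells and 0.05 to 0.22 for DC and T cells, so the numbers were not taken as pairs. As a block it left 8 integrins called against T cells, 5 against DC, 4 for DC against T cells and 7 against the mean of both (3 lower), and 431 genes lower in TDC than in DC. The block ended the calls of Itgb2 (0.0675) and Itgae (0.0742) against DC, Itga4 in DC against T cells (0.0698), Itga4 (0.0780) and Itgae (0.0597) against the mean of both, Itga6 (0.0963) and Itga8 (0.0695) against T cells and Rapgef1 against DC (0.0570). Leaving out 1 library gave 3 to 6 integrins called for TDC against DC (1 to 4 lower), 3 to 6 for DC against T cells (3 to 5 higher, 0 to 1 lower) and 2 to 5 lower against the mean of both. Over all genes it gave 1190 to 1976 called for TDC against DC (897 to 1365 higher, 293 to 611 lower), 937 to 1945 lower for TDC against T cells, and 2295 to 3907 called (350 to 989 lower) against the mean of both. Over all genes, the lowest of these came without TDC replicate 2. At this depth, Itgae in TDC (at most 106 reads a library) and Itgax and Itgam in T cells (at most 31 reads), Itga9 (1 to 4 reads) and Itgad (14 to 32 reads) in T cells and Itgb3 in TDC (3 to 34 reads) rest on few reads.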
